A study of Mus musculus with 2 samples.

Results

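The DNA replication machinery was followed here as a module of 43 genes chosen by name: origin licensing factors, helicase activators, replicative polymerases, the sliding clamp and its loader, single-strand binding and Okazaki fragment factors, enzymes of nucleotide supply, and factors that restore chromatin or protect the fork. All 43 were found among the 31053 genes of the count tables, and all 43 passed the filter on low counts, so that none was lost. Their expression was compared between cycling and resting cells of the epithelium and of the leukocytes in the intestine of tamoxifen-treated VilCreER Apc fl/fl mice.

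DNA is copied once per cell cycle. In G1 phase the origin recognition complex, Cdc6 and Cdt1 load the Mcm2 to Mcm7 ring onto origins, and at the start of S phase Cdc45, the GINS complex and Mcm10 turn that ring into a moving helicase. Polymerases then follow the fork, held by the clamp Pcna, while deoxynucleotides are supplied by ribonucleotide reductase. Many of these genes are known targets of the E2F transcription factors, and in the small intestine dividing epithelial cells normally sit in the crypts.

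The data were single-cell RNA-sequencing profiles of the proximal small intestine of 2 VilCreER Apc fl/fl mice, which formed 1 group. In this model the villin promoter drives a tamoxifen-dependent Cre recombinase in intestinal epithelium, where it removes the floxed Apc alleles, whereas leukocytes of the same mice are not its target. Tamoxifen was injected 2 times at 2 mg, 24 h apart, and cells were taken on day 4, sorted against dead cells with DAPI and sequenced from the 3′ end of transcripts. Both mice carried the same alleles and treatment and there was no control library, so every comparison below is between cells of the same animals and no effect of Apc loss could be measured.

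The kept cells numbered 7941 in mouse 1 and 6957 in mouse 2, with medians of 4381 and 2803 unique molecular identifiers (UMIs) per cell, and the module contributed 38006 and 28045 UMIs. Of the kept cells, 16 shared a barcode between the libraries. Cycling epithelium (at least 1 Epcam UMI, no Ptprc UMI and at least 2 UMIs of Mki67 and Top2a together) held 102 and 33 cells, and cycling leukocytes (at least 1 Ptprc UMI and at least 3 UMIs of Mki67 and Top2a) held 185 and 103 cells. Resting epithelium (906 and 199 cells) and resting leukocytes (5024 and 5643 cells) had no UMI of either proliferation gene. Counts were summed per class and mouse, giving 8 sums, and levels are given as TMM-scaled CPM, UMIs of a gene per 1000000 UMIs of the sum after TMM scaling, unless stated otherwise. Plain CPM, per 1000000 UMIs of the cells without that scaling, is used for groups of cells. Cells in the cycling classes were deeper than resting cells, with medians of 17043.5 and 20936 UMIs in cycling epithelium, 7776.5 and 8248 in resting epithelium, 23187 and 20751 in cycling leukocytes, and 3920.5 and 2710 in resting leukocytes. Apc itself was detected in every sum, at 39.7 and 48.1 TMM-scaled CPM in cycling epithelium, 44.5 and 29.2 in resting epithelium, 21.7 and 24.6 in cycling leukocytes, and 28.9 and 30.0 in resting leukocytes, and 3′ counts do not show whether the floxed exons were removed.

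The gates did not give pure cell types. All 12 epithelial markers (Krt8, Cdh1, Vil1 and others) had UMIs in both epithelial classes of both mice, with summed levels of 2893 and 2727 CPM in cycling and 2943 and 2050 in resting epithelium, against 501.1 and 142 in cycling and 211 and 120 in resting leukocytes. T-cell markers were low in cycling epithelium, at 18.6 and 15.8 CPM, against 336.5 and 813.5 in cycling leukocytes. The 5 plasma-cell markers, however, were detected in all classes, at 9839 to 52503 CPM. Immunoglobulin-rich cells, with at least 5% of their UMIs from plasma-cell and immunoglobulin genes, made up 33 of 102 and 7 of 33 cells of cycling epithelium, 423 of 906 and 76 of 199 of resting epithelium, and 104 of 185 and 46 of 103 of cycling leukocytes. In turn, 125 of 185 and 51 of 103 cycling leukocytes carried an Epcam UMI. Pancreatic acinar transcripts were present in mouse 1, at 20144 CPM in resting epithelium and 16411 in cycling leukocytes, and at 45.5 or less in every class of mouse 2. For this reason many of the results that follow are also given for stricter gates. These were chosen after the data were seen and kept epithelial cells with a Krt8, Krt18 or Krt19 UMI that were neither immunoglobulin- nor acinar-rich (68 and 26 cycling, 450 and 106 resting cells), and leukocytes with no Epcam and no keratin UMI (51 and 49 cycling, 3136 and 4240 resting cells).

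Because E2F factors are the best-known regulators of these genes, the sequence before their start sites was examined in RefSeq promoter windows of the GRCm38.p6 build (250 bases before and 50 after each start). A window was found for 35 of the 43 genes, and none was found for Pole, Rfc2, Mcm4, Tipin, Gins1, Gins2, Gins4 and Prim2. The E2F-like octamers TTTCCCGC, TTTCGCGC, TTTGCCGC or TTTGGCGC, on either strand, occurred in 15 of 35 module promoters (42.9%), in 704 of 27025 promoters of all genes (2.61%) and in 428 of 9078 promoters of genes tested here (4.71%). They were found in 7 of 9 licensing promoters (Orc1, Cdc6, Cdt1, Mcm3, Mcm5, Mcm6 and Mcm7), in 4 of 7 polymerase promoters (Pola1, Pold1, Pold3 and Pole2), and in those of Gins3, Rfc3, Lig1 and Uhrf1. In a list of 25 mitotic genes they occurred in 1 of 21 promoters (4.76%). The letters CCAAT, on either strand, occurred in 23 of 35 module promoters (65.7%), in 18 of 21 mitotic promoters (85.7%) and in 41.1% of all promoters. These matches describe the letters only. Of module genes whose 250 bases before the start overlap no annotated exon, the 4 with an E2F-like octamer in those bases are printed first (Mcm5, Mcm6, Pola1 and Uhrf1), with the octamers in capitals, followed by Mcm3 and Mcm10, which had none there and were among the largest changes below. All are written 5′ to 3′ in the direction of the gene. They lie at chr8:75109259-75109508 (Mcm5, plus strand), chr1:128359706-128359955 (Mcm6, minus strand), chrX:93632156-93632405 (Pola1, minus strand), chr17:56304063-56304312 (Uhrf1, plus strand), chr1:20820313-20820562 (Mcm3, minus strand) and chr2:5012792-5013041 (Mcm10, minus strand).
Mcm5: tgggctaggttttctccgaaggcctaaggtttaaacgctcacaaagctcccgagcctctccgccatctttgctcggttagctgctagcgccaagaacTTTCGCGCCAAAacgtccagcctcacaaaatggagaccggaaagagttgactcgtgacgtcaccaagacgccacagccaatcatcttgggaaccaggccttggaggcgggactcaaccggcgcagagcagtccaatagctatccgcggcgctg
Mcm6: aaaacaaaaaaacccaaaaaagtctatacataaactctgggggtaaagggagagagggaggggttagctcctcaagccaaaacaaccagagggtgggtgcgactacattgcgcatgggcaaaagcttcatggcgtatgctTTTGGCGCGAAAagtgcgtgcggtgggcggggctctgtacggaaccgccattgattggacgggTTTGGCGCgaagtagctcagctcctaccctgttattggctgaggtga
Pola1: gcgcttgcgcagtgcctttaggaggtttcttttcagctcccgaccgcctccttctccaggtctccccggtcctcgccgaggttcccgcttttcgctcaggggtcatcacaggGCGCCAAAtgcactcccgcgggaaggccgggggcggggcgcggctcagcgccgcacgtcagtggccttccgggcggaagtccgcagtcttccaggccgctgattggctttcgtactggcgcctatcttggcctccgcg
Uhrf1: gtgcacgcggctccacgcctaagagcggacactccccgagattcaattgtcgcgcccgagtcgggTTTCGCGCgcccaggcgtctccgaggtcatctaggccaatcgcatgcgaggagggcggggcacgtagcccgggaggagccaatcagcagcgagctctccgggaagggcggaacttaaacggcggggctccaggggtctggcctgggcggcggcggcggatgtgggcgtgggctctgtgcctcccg
Mcm3: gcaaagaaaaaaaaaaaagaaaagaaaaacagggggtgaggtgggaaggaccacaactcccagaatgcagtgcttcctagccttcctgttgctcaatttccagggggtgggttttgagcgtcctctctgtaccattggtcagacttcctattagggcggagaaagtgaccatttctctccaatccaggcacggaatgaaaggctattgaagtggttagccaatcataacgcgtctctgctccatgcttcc
Mcm10: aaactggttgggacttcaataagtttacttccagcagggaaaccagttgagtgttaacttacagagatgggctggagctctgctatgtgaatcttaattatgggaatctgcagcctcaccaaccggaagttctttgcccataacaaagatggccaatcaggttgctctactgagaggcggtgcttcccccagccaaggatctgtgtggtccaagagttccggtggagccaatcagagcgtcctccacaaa
In Mcm5 the octamers TTTCGCGC and TTTGGCGC overlapped on opposite strands, beginning 153 and 149 bases before the start, and in Mcm6 the same pair overlapped 110 and 106 bases before it, with a further TTTGGCGC 47 bases before it. The match in Mcm3 fell in the 50 bases after its start, which are not shown. For Mcm10 no match was found in the 300 bases searched. Uhrf1 had 2 promoter windows. The one printed lies inside the gene as annotated in GENCODE M21, where it begins at chr17:56303321.

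The whole module was higher in cycling than in resting cells of both compartments and both mice. Summed over the 43 genes, it reached 1637 and 2148 TMM-scaled CPM in cycling epithelium, 325.1 and 282.9 in resting epithelium, 1457 and 1662 in cycling leukocytes, and 466.1 and 582.5 in resting leukocytes. Both cycling classes therefore lay above both resting classes, the 2 cycling classes lay near each other with mouse 1 below mouse 2 in each, and resting epithelium was lowest. The distance between the 2 cycling classes changed with the cells left out. In plain CPM, cycling epithelium stood at 1754 and 2756 and cycling leukocytes at 1310 and 1849. Without immunoglobulin-rich cells, cycling epithelium stood at 2616 and 3048 and cycling leukocytes at 2512 and 2490. Cycling leukocytes without Epcam or keratin UMIs, of which 22 of 51 and 14 of 49 were immunoglobulin-rich, stood at 1907 and 1921. By gene, cycling epithelium lay above resting epithelium in both mice for 43 of 43 genes, against 4402 of all 11713 genes tested. Cycling leukocytes lay above resting leukocytes in both mice for 41 of 43 genes, against 4252 of 11713.

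**Figure D1:**
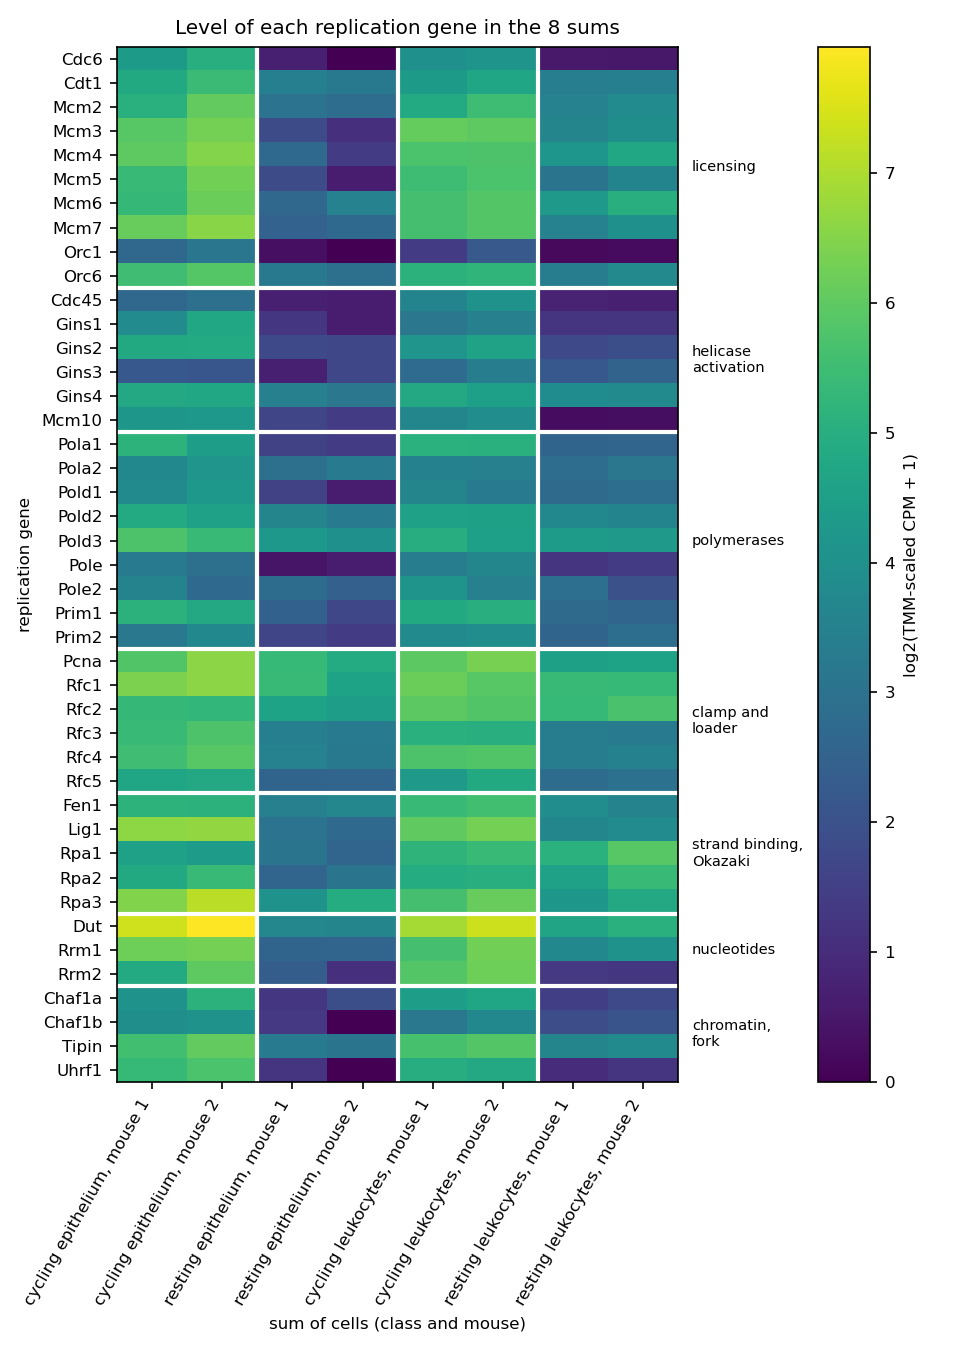
Level of each of the 43 replication genes as log2(TMM-scaled CPM + 1) (colour) in the 8 sums of cells, with 1 row per gene grouped by role and 1 column per class and mouse. Cycling columns are brighter than resting columns in nearly every row, while Rpa1 and Rpa2 stay bright in resting leukocytes (Rpa1 at 33.3 and 59.2 TMM-scaled CPM).

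The comparison of cycling with resting epithelium asked which parts of the machinery go with proliferation in the epithelium of these mice. The cells were chosen by the proliferation genes Mki67 and Top2a, so a broad rise of replication genes in either compartment was partly set by the gates. Of the 43 genes, 39 were higher in cycling epithelium and 0 were lower (edgeR quasi-likelihood test, Benjamini-Hochberg adjusted p under 0.05; 0 lower also at unadjusted p under 0.05 and by DESeq2, which called 39 higher). Of all 11713 genes tested, 11.1% were called higher and 7.58% lower, and 2027 were lower at unadjusted p under 0.05 by the edgeR test. All 43 fold changes were positive in each mouse, with a median log2 fold change of 2.87 against -0.07 over all genes tested, and with values from 0.68 to 5.62.

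Of the licensing genes 10 of 10 were higher, with a median log2 fold change of 4.07. Cdc6, which loads the helicase ring, stood at 19.2 and 31.3 TMM-scaled CPM in cycling and at 0.64 and 0 in resting epithelium, where only 5 and 0 UMIs were seen. Its log2 fold change was 5.62 ± 0.60 (SE; edgeR adjusted p = 0.00152), and the sums did not overlap. Mcm3, a subunit of that ring, was at 58.5 and 78.3 TMM-scaled CPM against 2.54 and 1.12 (log2 fold change 4.99 ± 0.38, edgeR adjusted p = 0.000632). For Mcm7, another subunit and the licensing gene with the most UMIs in cycling epithelium, the sums were 68.7 and 92.8 against 4.71 and 5.61 (3.99 ± 0.32, edgeR adjusted p = 0.000644). Every cycling sum of these ring subunits thus lay far above every resting one. Across Mcm2 to Mcm7 the log2 fold changes ran from 2.80 for Mcm2 to 4.99 for Mcm3. Orc1, the largest subunit of the origin recognition complex, gave 4.93 from few UMIs (12 and 7 in cycling, 2 and 0 in resting epithelium), while Orc6 of the same complex gave 2.73 and Cdt1 gave 1.89.

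Helicase activators were higher for 5 of 6 genes. Gins2, a GINS subunit, was at 27.7 and 28.0 TMM-scaled CPM in cycling and 2.42 and 2.25 in resting epithelium, a log2 fold change of 3.55 ± 0.34 (edgeR adjusted p = 0.00119). Mcm10 was at 17.4 and 17.9 against 2.16 and 1.68 (3.12 ± 0.38, edgeR adjusted p = 0.00242). Gins1, Cdc45 and Gins4 rose by 4.01, 3.23 and 1.51 on the log2 scale. Gins3 did not pass the test, at 3.57 and 3.36 TMM-scaled CPM against 0.64 and 2.25 (1.66 ± 0.75, edgeR adjusted p = 0.159).

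Among polymerase genes 7 of 9 were higher. The catalytic subunits Pole (4.21), Pola1 (3.94) and Pold1 (3.30) and the primase subunits Prim1 (3.01) and Prim2 (2.27) had larger log2 fold changes than the accessory subunits Pold3 (1.50) and Pold2 (1.31). Pold3, an accessory subunit of polymerase delta, was at 53.1 and 40.3 TMM-scaled CPM in cycling and 17.8 and 15.2 in resting epithelium (SE 0.27, edgeR adjusted p = 0.0113). The non-catalytic subunits Pola2 (0.89 ± 0.36, edgeR adjusted p = 0.12) and Pole2 (0.68 ± 0.58, edgeR adjusted p = 0.439) did not pass. Whether catalytic and accessory subunits differ in their change was not tested.

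The clamp and its loader had the smallest median of the 7 roles, 1.87 (1.56 and 2.17 in the separate mice, also the smallest there), with 5 of 6 higher. Pcna, the sliding clamp, was at 54.9 and 95.1 TMM-scaled CPM in cycling epithelium but also at 39.4 and 28.6 in resting epithelium, so that its log2 fold change was 1.11 ± 0.32 (edgeR adjusted p = 0.0485). This call was kept by DESeq2, with the mouse as a block, without the low-count filter, with T-cell-marked leukocytes, with more mitochondrial UMIs allowed and without the highest doublet scores, and was lost under every other setting tried, including each fit that left out 1 sum. With the strict keratin gates 38 of 41 tested genes were higher, against 11.3% of all genes, and neither Pcna (0.48 ± 0.26, edgeR adjusted p = 0.207) nor Rfc1 was among them. Rfc1, the large subunit of the clamp loader, was at 83.5 and 93.9 TMM-scaled CPM against 40.2 and 23.6 (1.45 ± 0.29, edgeR adjusted p = 0.0146). Rfc4, Rfc5 and Rfc3, small subunits of the loader, rose by 2.42, 2.35 and 2.29 on the log2 scale. Rfc2 lay just outside the threshold (0.79 ± 0.23, edgeR adjusted p = 0.05001) and was called when the mouse was entered as a block (edgeR adjusted p = 0.0422).

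All 5 single-strand binding and Okazaki fragment genes were higher. Rpa3, the small subunit of the single-strand binding protein RPA, was at 87.0 and 140.9 TMM-scaled CPM in cycling and 15.9 and 29.7 in resting epithelium (2.35 ± 0.42, edgeR adjusted p = 0.0102). Lig1, which seals Okazaki fragments, was at 96.9 and 101.8 against 7.12 and 5.61 (3.92 ± 0.26, edgeR adjusted p = 0.000632). Rpa2, Rpa1 and the flap nuclease Fen1 rose by 2.52, 1.73 and 1.66 on the log2 scale. All 3 nucleotide supply genes were higher. Dut, which keeps uracil out of DNA by breaking down dUTP, was at 166.1 and 249.4 TMM-scaled CPM against 11.8 and 11.2 (4.16 ± 0.33, edgeR adjusted p = 0.000632), and the ribonucleotide reductase subunits Rrm1 and Rrm2 rose by 3.91 and 3.81 on the log2 scale. Of the chromatin and fork group all 4 were higher. Uhrf1, which carries DNA methylation through replication, was at 39.3 and 51.4 TMM-scaled CPM against 1.27 and 0 (5.53 ± 0.55, edgeR adjusted p = 0.00122). Tipin, a fork protection factor, was at 46.0 and 64.9 against 8.65 and 7.30 (2.75 ± 0.28, edgeR adjusted p = 0.00129), and the histone chaperone subunits Chaf1b and Chaf1a rose by 3.76 and 3.70 on the log2 scale.

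**Figure D2:**
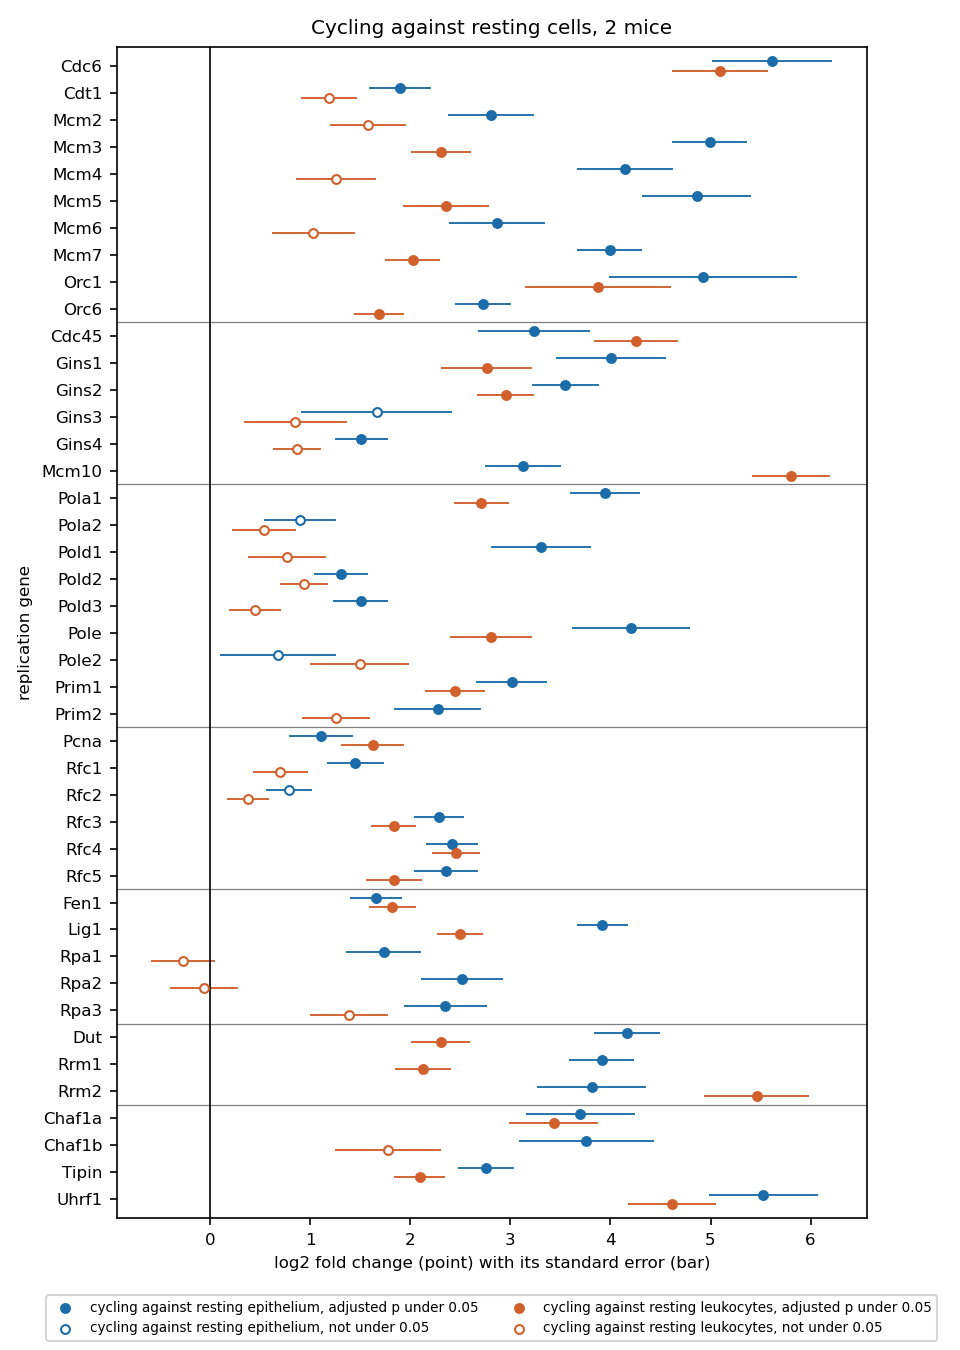
Log2 fold change of each replication gene (points; bars, standard error; edgeR fit of 8 sums from 2 mice) between cycling and resting cells, in epithelium (blue) and leukocytes (orange), with filled points for adjusted p under 0.05 and lines between roles. Cdc6 and Uhrf1 sit farthest to the right in epithelium (5.62 and 5.53), and Rpa1 and Rpa2 sit near 0 in leukocytes (-0.28 and -0.07).

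Of a list of 42 other replication genes 41 were tested, with 28 higher, 1 lower and a median log2 fold change of 1.79. The largest changes were those of Ticrr, Pclaf and Asf1b. Ticrr, a replication initiation factor, gave 5.75 ± 0.88 (edgeR adjusted p = 0.00581). Pclaf, a Pcna-binding protein, gave 6.62 ± 0.51 (edgeR adjusted p = 0.000632), and Asf1b, a histone chaperone, gave 5.33 ± 0.66 (edgeR adjusted p = 0.00248). The gene that fell was Pold4, the smallest subunit of polymerase delta, from 24.9 and 22.5 TMM-scaled CPM in resting to 7.59 and 11.2 in cycling epithelium (-1.40 ± 0.33, edgeR adjusted p = 0.0244). All 25 mitotic genes were higher with a median of 5.59, led by Plk1 (6.69), Nusap1 (6.69) and Cenpf (6.61). That list is close in function to the gate genes Mki67 and Top2a, which chose the cells.

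Cell make-up moved with these values. Stem-cell markers (8 genes) were at 761 and 1209 CPM in cycling and 109.5 and 191 in resting epithelium, and goblet markers (6 genes) at 801 and 1082 against 134 and 488. Enterocyte markers (9 genes) ran the other way, at 509 and 1397 CPM in cycling and 11837 and 18848 in resting epithelium, as did enteroendocrine markers (4 genes), at 3.83 and 0 against 21.1 and 1997. Cycling and resting epithelium thus also differed in differentiation state, and its part in the changes was not tested. Within cycling epithelium of mouse 1, the 33 immunoglobulin-rich cells carried the module at 172.1 CPM (95% Poisson interval 143.5 to 204.8) and mitotic genes at 50.2, while the other 69 cells carried 2616 (2530 to 2703) and 2730. In mouse 2 the corresponding module levels were 1583 (1380 to 1806) in 7 cells and 3048 (2905 to 3196) in 26 cells. These intervals cover counting error only. Resting epithelium without immunoglobulin-rich cells carried the module at 375.7 and 385.2 CPM, so the gap between cycling and resting cells was present in both mice without those cells. Leaving immunoglobulin- and acinar-rich cells out of the epithelium gave 41 of 43 genes higher, against 9.56% of all genes, and a median log2 fold change of 3.16. Fits that left out 1 of the 8 sums at a time called 29 to 38 genes. Of the leading genes of each role, Rfc1 was lost without either sum of cycling epithelium, Pold3 without cycling epithelium of mouse 1 or resting epithelium of mouse 2, and Rpa3 without cycling epithelium of mouse 2 or resting epithelium of mouse 1.

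The same contrast was then made in leukocytes. Of the 43 genes 25 were higher in cycling than in resting leukocytes and 0 lower by the edgeR test, and 30 and 0 by DESeq2. Of all genes tested, edgeR called 3.5% higher and 2% lower. At unadjusted p under 0.05 by that test, 36 module genes were higher and 0 lower, against 1404 and 1660 of all 11713. The median log2 fold change was 1.83, against -0.10 over all genes tested, and 41 of 43 were positive in each mouse. With the mouse as a block 35 were higher, against 7.69% of all genes. Fits that left out 1 sum at a time gave 17 to 26, the fewest without cycling leukocytes of mouse 2, where Mcm7 was among the genes lost.

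Mcm10 changed most, from 0.20 and 0.23 TMM-scaled CPM in resting to 11.6 and 14.1 in cycling leukocytes (5.81 ± 0.39, edgeR adjusted p = 0.000295). Rrm2, the regulatory subunit of ribonucleotide reductase, went from 1.48 and 1.40 to 56.2 and 72.3 (5.46 ± 0.53, edgeR adjusted p = 0.00122), and Cdc6 from 0.46 and 0.43 to 14.8 and 16.6 (5.09 ± 0.48, edgeR adjusted p = 0.00114). For these 3 genes no cycling sum came near a resting one. Uhrf1, Cdc45 and Orc1 followed with log2 fold changes of 4.62, 4.26 and 3.88.

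By role, 6 of 10 licensing genes, 4 of 6 helicase activators, 3 of 9 polymerase genes, 4 of 6 clamp and loader genes, 2 of 5 single-strand binding and Okazaki genes, 3 of 3 nucleotide supply genes and 3 of 4 chromatin and fork genes were higher in cycling leukocytes. Dut was at 117.4 and 162.7 TMM-scaled CPM in cycling and 24.1 and 32.6 in resting leukocytes (2.30 ± 0.30, edgeR adjusted p = 0.00478). Mcm7 was at 48.2 and 56.5 against 10.6 and 15.1 (2.02 ± 0.27, edgeR adjusted p = 0.0062). Gins2 was at 16.9 and 23.0 against 2.37 and 2.74 (2.95 ± 0.29, edgeR adjusted p = 0.00125), and Tipin at 48.7 and 55.7 against 11.3 and 13.1 (2.09 ± 0.25, edgeR adjusted p = 0.00367). These changes were all well outside the spread between the mice. Rfc1 (72.0 and 58.1 against 41.2 and 39.1; 0.70 ± 0.28, edgeR adjusted p = 0.163) and Pold3 (29.9 and 21.4 against 19.6 and 18.3; 0.44 ± 0.26, edgeR adjusted p = 0.315) did not pass. Nor did Rpa3 (48.4 and 68.2 against 17.7 and 26.9; 1.38 ± 0.39, edgeR adjusted p = 0.08), which DESeq2 and the fit with the mouse block did call. The other RPA subunits gave values near 0. Rpa1 stood at 34.9 and 41.6 TMM-scaled CPM in cycling and 33.3 and 59.2 in resting leukocytes (-0.28 ± 0.32, edgeR adjusted p = 0.618), and Rpa2 at 29.7 and 30.7 against 22.5 and 40.7 (-0.07 ± 0.34, edgeR adjusted p = 0.926).

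Of the other replication genes 23 of 41 were higher and 0 lower in cycling leukocytes (28 and 1 at unadjusted p under 0.05), led by Pclaf (6.97 ± 0.50, edgeR adjusted p = 0.000379), Dscc1 of an alternative clamp loader (4.39 ± 0.54, edgeR adjusted p = 0.00404) and Tk1, thymidine kinase (4.01 ± 0.37, edgeR adjusted p = 0.000999). All 25 mitotic genes were higher with a median of 5.91, led by Hmmr (8.19), Ccna2 (7.76) and Ube2c (7.55). T-cell markers moved with this contrast, from 1640 and 4585 CPM in resting to 336.5 and 813.5 in cycling leukocytes, and immunoglobulin-rich cells from 1774 of 5024 and 315 of 5643 to 104 of 185 and 46 of 103 cells. Acinar markers went from 2417 to 16411 CPM in mouse 1 and were at 0.76 and 0 in mouse 2. The part of these shifts in the result was not tested. Restricted to leukocytes with a Cd3 UMI, 22 module genes were higher, and restricted to those with a Cd79 UMI and none of Cd3, 28 of 42 were, against 3.38% and 3.32% of all genes. With the strict keratin gates 24 of 41 were higher, against 270 of 9961 genes tested.

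Placed side by side, 25 genes passed the threshold in both compartments, 14 in epithelium alone (Cdt1, Chaf1b, Gins4, Mcm2, Mcm4, Mcm6, Pold1, Pold2, Pold3, Prim2, Rfc1, Rpa1, Rpa2 and Rpa3) and 4 in neither (Gins3, Pola2, Pole2 and Rfc2). Passing in one compartment and not in the other does not show a difference, which is tested below, and with the mouse as a block Cdt1, Chaf1b, Gins4, Mcm2, Mcm4, Mcm6, Pold2, Prim2 and Rpa3 passed in leukocytes as well, as did Pole2, which passes in neither without the block.

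Cycling epithelium and cycling leukocytes were next compared directly, to see whether dividing cells of either compartment hold more of the machinery. No gene of the module was called in either direction by the edgeR test, and DESeq2 called 0 and 0. Of all genes tested, edgeR called 9.66% higher and 12.3% lower. At unadjusted p under 0.05 by that test, 4 module genes were higher and 3 lower, against 2034 and 2367 of all 11713. Log2 fold changes ran from -1.18 for Cdc45 to 1.35 for Orc1, with 32 of 43 positive, against 5636 of all 11713 genes. The median log2 fold change was 0.28, against -0.04 over all genes. The module median was 0.55 with a gate of 2 UMIs in both classes, 0.09 with Epcam-free leukocytes and 0.10 with Cd79-marked leukocytes. Over all genes the median was -0.09, -0.15 and -0.04 under these settings. Cycling epithelium lay above cycling leukocytes in both mice for 22 of 43 genes and below in both for 9, against 4644 and 4727 of all 11713.

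The smallest adjusted p belonged to Pold3, at 53.1 and 40.3 TMM-scaled CPM in cycling epithelium against 29.9 and 21.4 in cycling leukocytes (0.87 ± 0.27, edgeR adjusted p = 0.0539). Rpa3 followed the same order (87.0 and 140.9 against 48.4 and 68.2; 0.96 ± 0.40, edgeR adjusted p = 0.119). These 2 genes were called higher once the mouse was entered as a block (Pold3 adjusted p = 0.0223 and Rpa3 adjusted p = 0.0109 by edgeR), against 12.9% of all genes. With the strict keratin gates 3 genes were called higher, namely Dut (0.70 ± 0.22), Rfc3 (0.92 ± 0.31) and Rpa3 (1.41 ± 0.35), against 20.9% of all genes. With those gates and at least 6 UMIs of Mki67 and Top2a in both classes 0 were called higher, against 11.5%. The module median was then -0.05, against -0.06 over all genes.

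The other leading genes of each role differed by less than their error allowed to call. Dut gave 0.57 ± 0.28 (edgeR adjusted p = 0.185), Mcm7 0.62 ± 0.27 (0.139), Gins2 0.49 ± 0.28 (0.244), Rfc1 0.44 ± 0.28 (0.286) and Tipin 0.07 ± 0.25 (0.987), each with its standard error and edgeR adjusted p. Standard errors ran from 0.22 to 0.70 across the module, and the absence of calls does not show that the classes were alike. Of the 41 other replication genes tested 3 were higher and 4 lower, with the largest differences in Pold4 (7.59 and 11.2 TMM-scaled CPM in cycling epithelium, 49.1 and 33.5 in cycling leukocytes; -2.20 ± 0.32, edgeR adjusted p = 0.00546), the transcription factor E2f2 (-1.81 ± 0.44, edgeR adjusted p = 0.0269) and the p53-inducible reductase subunit Rrm2b (-1.47 ± 0.36, edgeR adjusted p = 0.0266). Of the mitotic list, Cenpe (-1.65 ± 0.36, edgeR adjusted p = 0.0202) and Hmmr (-1.52 ± 0.42, edgeR adjusted p = 0.0376) were lower in cycling epithelium. The gates of the 2 classes differ by 1 UMI. With 2 UMIs in both 5 module genes were higher in epithelium (Lig1, Mcm7, Orc6, Pold3 and Rfc3), which at 11.6% of the module was near the 11% of all genes, and with 3 in both 1 was (Pold3), or 2.33% against 10.2%.

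Whether the step from resting to cycling cells was larger in epithelium than in leukocytes was tested as the difference of the 2 contrasts. By the edgeR test 0 genes of the module were called higher and 0 lower, as for all genes tested (0% and 0%). At unadjusted p under 0.05 there were 15 higher and 2 lower of 43, against 11.9% and 10.9% of all genes. The sums of both classes in a mouse come from 1 animal, and with the mouse as a block 11 genes were called higher and 1 lower, against 3.3% and 4.73% of all genes. DESeq2 called 8 higher and 1 lower, against 1.84% and 4.6%, and the strict keratin gates gave 6 and 1 of 41, against 3.03% and 2.89%. The call for a given gene therefore rests on the model. The direction was positive for 36 of 43 genes, and in both mice for 33, against 6031 and 4568 of all 11713 genes. The median difference over the module was 0.91. It was 1.25 without immunoglobulin- and acinar-rich epithelial cells, 0.49 in cells of at least 5000 UMIs and 0.25 with Cd79-marked leukocytes. Over all genes the median was -0.01, -0.20 and -0.20 under these 3 settings.

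The genes with a larger step in epithelium under the block were Mcm3 to Mcm7, Dut, Rrm1, Lig1, Pold1, Rpa1 and Rpa2. For Mcm3 the difference of the log2 steps was 2.68 ± 0.47 (edgeR adjusted p = 0.0821; 0.0215 with the block), for Mcm7 1.97 ± 0.41 (0.0983; 0.0192) and for Dut 1.86 ± 0.41 (0.0983; 0.0215). Rpa2 gave 2.58 ± 0.53 (0.0983; 0.0171) and Rpa1 2.01 ± 0.49 (0.105; 0.0443). Over Mcm2 to Mcm7 the median difference was 2.24, against 0.05 over all genes tested. Mcm10 went the other way (-2.68 ± 0.52, edgeR adjusted p = 0.0932; 0.0332 with the block). For Rpa3, Pold3, Rfc1, Tipin and Gins2 the difference was 0.97 ± 0.56, 1.06 ± 0.37, 0.75 ± 0.39, 0.66 ± 0.37 and 0.60 ± 0.43 and was called under neither fit (edgeR adjusted p = 0.341, 0.16, 0.299, 0.321 and 0.435; 0.0719, 0.0656, 0.191, 0.278 and 0.433 with the block).

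The resting classes were also compared with each other, a comparison added after the levels had been seen. Between resting epithelium and resting leukocytes 16 of 43 genes were lower in epithelium and 1 was higher by the edgeR test, against 22.6% of all genes lower and 17.3% higher, and the median log2 fold change was -0.50 against -0.21 over all genes. As a share of the module, the genes called lower (37.2%) were above that background and the gene called higher (2.33%) was below it. This contrast shares its resting sums with those above and is no independent evidence of them.

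Rpa1 was lowest, at 7.38 and 5.05 TMM-scaled CPM in resting epithelium against 33.3 and 59.2 in resting leukocytes (-2.83 ± 0.36, edgeR adjusted p = 0.0019). Mcm3 was at 2.54 and 1.12 against 11.3 and 14.8 (-2.61 ± 0.36, edgeR adjusted p = 0.0022), and Rpa2 at 5.09 and 7.30 against 22.5 and 40.7 (-2.42 ± 0.39, edgeR adjusted p = 0.00334). Of the ring subunits, Mcm3 to Mcm7 were all lower, with log2 fold changes of -2.61 to -1.35, while Mcm2 was not called (-0.81 ± 0.40, edgeR adjusted p = 0.146). Dut was also lower (11.8 and 11.2 against 24.1 and 32.6; -1.29 ± 0.30, edgeR adjusted p = 0.0126). Of the other leading genes Rpa3, Rfc1, Tipin, Pold3 and Gins2 gave -0.01, -0.31, -0.59, -0.19 and -0.11 with no call. Mcm10 was the gene higher in resting epithelium, at 2.16 and 1.68 against 0.20 and 0.23 TMM-scaled CPM, from 17 and 3 UMIs against 8 and 7 (3.14 ± 0.41, edgeR adjusted p = 0.00201).

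Among other replication genes 16 of 41 were lower and 3 higher in resting epithelium, with the largest differences in Asf1b (-3.37), the nuclease Dna2 (-3.28) and the checkpoint adaptor Clspn (-2.64). The mitotic list showed no common direction, with 4 of 25 higher and 2 lower, and its largest differences were in Cenpa (-2.50), Bub1 (2.21) and Ube2c (2.09). Depth and cell type moved with this result. In cells of at least 5000 UMIs 4 of 43 module genes were lower (Mcm3, Mcm4, Rpa1 and Rpa2), or 9.3% against 11% of all genes, and against leukocytes with a Cd79 UMI and no Cd3 UMI 3 of 42 were (Pold1, Rpa1 and Rpa2), or 7.14% against 10.3%. Under neither setting was the module's share above the background. With the strict keratin gates 16 of 41 were lower (39.0% against 28.1%), and Pcna was then higher in resting epithelium beside Mcm10. Without resting leukocytes of mouse 2 the count was 4 (9.3% against 8.06% of all genes) and the median -0.24, and without resting epithelium of mouse 1 the count was 8 (18.6% against 9.01%) and the median -0.95, with Mcm10 no longer called in the latter.

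The level of the module was also read against the number of gate UMIs in each cell, using the stricter cell gates. In keratin-positive epithelium of mouse 1 it was 405.4 CPM in 450 cells with no Mki67 or Top2a UMI, 1993 in 30 cells with 1, 3855 in 10 cells with 2, 2812 in 18 cells with 3 to 5, 2744 in 15 cells with 6 to 10 and 2365 in 25 cells with 11 or more. In mouse 2 the same bins gave 375.8, 925.3, 1365, 3856, 3271 and 3311 in 106, 11, 5, 2, 10 and 9 cells. Epithelial cells with a single gate UMI thus already lay above those with none in both mice. Leukocytes without Epcam or keratin UMIs gave a different course, but immunoglobulin-rich cells were left out of the epithelium only. The part of that difference in the gates was not tested. In mouse 1 cells with 0, 1, 2 and 3 to 5 gate UMIs lay between 467.7 and 552.6 CPM, and only those with 6 to 10 (3251, 8 cells) and 11 or more (3212, 18 cells) lay higher. In mouse 2 the bin with 1 gate UMI, at 983.8 (936.1 to 1033), lay above the bin with none, at 815.8 (801.4 to 830.5), that with 3 to 5 lay at 741.1, that with 6 to 10 at 1177 (10 cells), and that with 11 or more at 3117 (17 cells). Of leukocytes with 3 to 5 gate UMIs, 14 of 25 and 7 of 22 were immunoglobulin-rich, against 827 of 3136 and 111 of 4240 with none. Median depths were 16169 and 13099.5 UMIs with 3 to 5 gate UMIs and 3408.5 and 2584.5 with none. The leukocyte gate of 3 UMIs therefore included cells whose module level was near that of resting cells. Their mitotic genes were nonetheless higher, at 148.7 and 908.2 CPM with 3 to 5 gate UMIs against 45.9 and 55.6 with none. In mouse 2 mitotic genes reached 2966 CPM in the bin with 6 to 10.

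**Figure D3:**
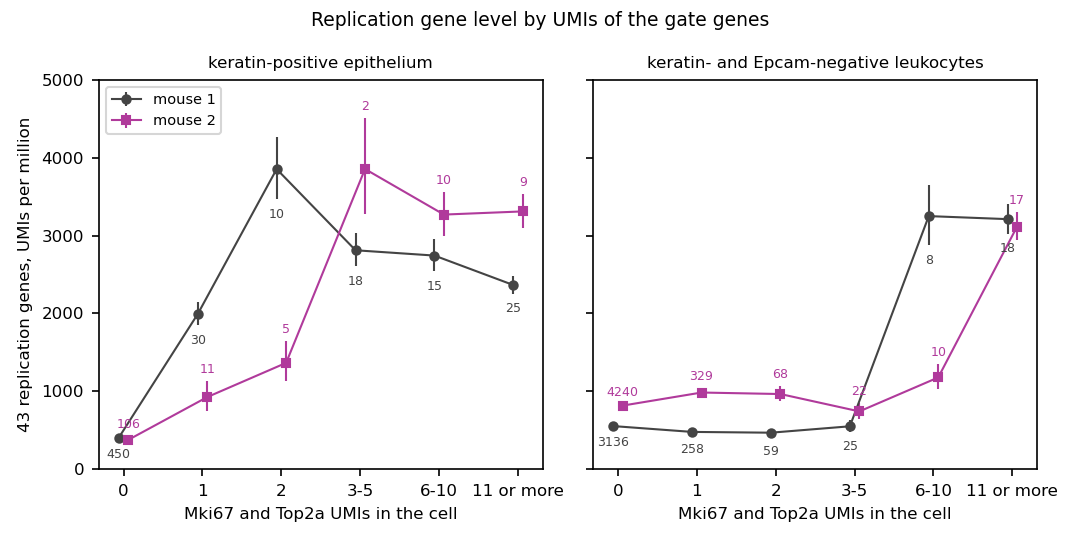
Summed level of the 43 replication genes (CPM of all UMIs in the cells of a bin; bars, 95% Poisson intervals for counting error only) against the number of Mki67 and Top2a UMIs in the cell, in keratin-positive epithelium (left) and keratin- and Epcam-negative leukocytes (right). Small numbers give the cells in each bin, and immunoglobulin-rich cells were left out of the epithelium only. In epithelium the bin with 1 gate UMI lies at 1993 and 925.3 CPM against 405.4 and 375.8 with none. In leukocytes that bin lies at 477.7 and 983.8 against 552.6 and 815.8.

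Detection per cell at equal depth gave the same order of cycling above resting cells. By median, however, cycling leukocytes lay nearer to resting leukocytes than to cycling epithelium in both mice, unlike in the summed levels. When each cell was thinned to 2000 UMIs (shallower cells left out), the expected number of module genes detected had a median of 4.36 and 5.34 in cycling epithelium (97 and 31 cells at depth) and 0.43 and 0.37 in resting epithelium (749 and 154 cells). In leukocytes the medians were 1.45 and 2.43 in cycling (184 and 102 cells) and 1.05 and 1.64 in resting cells (4557 and 4266 cells). Before thinning the medians were 17 and 20 in cycling epithelium, 2 and 2 in resting epithelium, 11 and 14 in cycling leukocytes and 3 and 2 in resting leukocytes, with depth differing as given above. Keratin-positive cycling epithelium reached 5.28 and 5.38 at 2000 UMIs, with quartiles of 4.21 to 6.72 and 3.68 to 6.36, which lay wholly above those of keratin-positive resting epithelium (0.32 to 0.96 and 0 to 0.87). Without the keratin gate the quartiles of cycling and resting epithelium overlapped in mouse 1 (0.47 to 5.91 against 0.20 to 0.77) and not in mouse 2 (3.10 to 6.70 against 0.17 to 0.69). The quartiles of cycling and resting leukocytes overlapped in both mice.

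**Figure D4:**
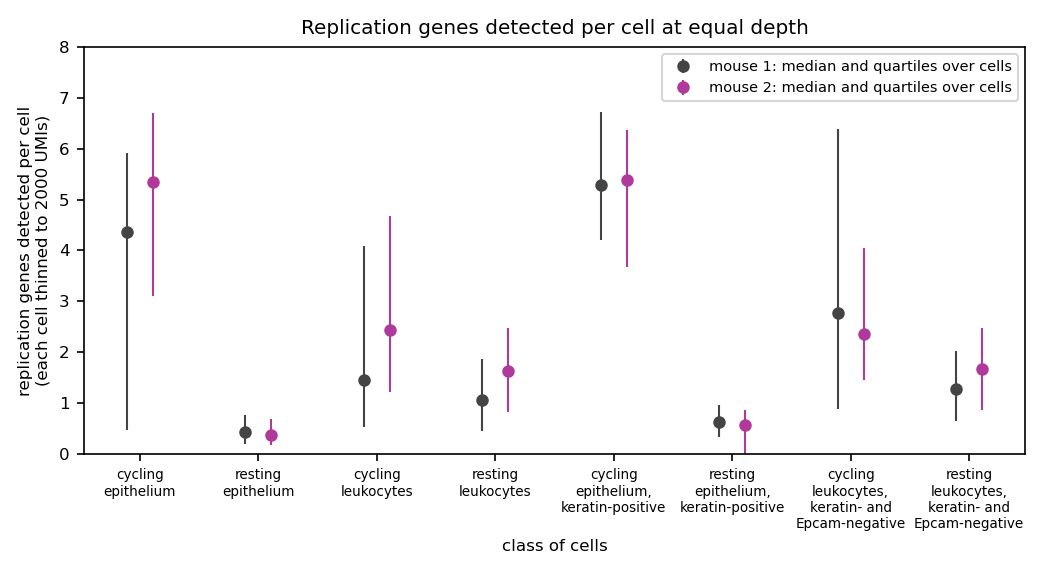
Expected number of replication genes detected in a cell after thinning to 2000 UMIs (points, median over cells; bars, lower to upper quartile) for the 4 classes and for the stricter keratin gates, by mouse. With the keratin gate the quartiles of cycling and resting epithelium do not overlap (medians of 5.28 and 5.38 against 0.63 and 0.56), while without it they overlap in mouse 1, and those of cycling and resting leukocytes overlap in both mice.

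Some members share sequence or position with other genes. In the GENCODE M21 annotation 13 of the 43 overlap another gene of the tables, 11 of them only on the opposite strand. Cdt1 and Pole2 overlap the genes Gm20388 and Gm49384 on the same strand, both of which had 0 UMIs, and a pseudogene of Pcna listed in the tables had 14 and 8 UMIs in all.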

How the data were processed

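Single cells of the proximal small intestine of 2 mice were profiled with 10x 3′ v3 chemistry. For each mouse the authors deposited a matrix of counts (UMIs by gene and barcode), made with Cell Ranger 6.1.2 and mm10 (submitters' processing notes). The annotation release is not given in the sources used here; GENCODE M21 identifiers matched 43 of 43 module genes and 30934 of 31053 genes. No values were normalized before deposit, and totals were 85670711 and 38716743 UMIs over 9645 and 8800 barcodes.

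Barcodes with over 100 genes, over 400 UMIs, under 5% mitochondrial and under 10% hemoglobin UMIs were kept. Scrublet (in scanpy 1.11.5) called 1 and 0 cells, which does not show that doublets were few, and no cell was removed as a doublet. The 8% highest scores were removed as an alternative. They held 33 of 185 and 6 of 103 cycling leukocytes, and 2 of 102 and 0 of 33 cells of cycling epithelium. Raw counts were summed per class and mouse (697120 to 44373156 UMIs per sum) and filtered with filterByExpr (11713 genes kept). They were scaled by TMM (factors 0.747 to 1.29) and fitted over all 8 sums with edgeR 4.0.16 in R 4.3.3. The test was a 2-sided quasi-likelihood F test, with Benjamini-Hochberg adjustment over all genes. The standard error after ± was derived from that test, as the absolute log2 fold change over the square root of F, and is no separate estimate of spread. DESeq2 1.42.0 was an alternative. The edgeR test of cycling against resting epithelium was also run on simulated sums that took their spread from the main fit. Those sums were drawn independently of each other, and the other contrasts were not simulated. Poisson intervals (scipy 1.17.1) cover counting error only. Sums of 1 mouse share an animal and a library, and their deviations from the class means correlated at 0.18 to 0.64, so a fit with the mouse as a block is given where it changes a call. The labels do not show that the samples differ beyond the animal, so p-values measure the spread between 2 mice.

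The module, the gene lists and the gates were chosen with earlier results of these data known. Genes named with full values were the 3 called with the largest change in each direction and, for each role, the gene with the most UMIs in cycling epithelium; of the other lists, the 3 called with the largest change. Pold4, Rpa1, Rpa2, Pcna, Rfc2 and further genes outside that rule were named after their values were seen. Of 12 acinar markers 11 were in the tables. Alternatives changed the normalization tool, the low-count filter, the block, the gates, depth, mitochondrial and doublet limits, immunoglobulin genes and the sums included. Thinning to 2000 UMIs gave expected detection without random draws.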

Additional observations from a re-analysis of the deposited data

Results flagged for a closer look

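Module transcripts were also present in barcodes that no comparison used. Barcodes removed by the filters held 1655 UMIs of the 43 replication genes in mouse 1 (1704 barcodes, 359.0 CPM of their UMIs) and 2579 in mouse 2 (1843 barcodes, 795.4 CPM). Kept cells with neither an Epcam nor a Ptprc UMI held 2076 in mouse 1 (929 cells, 362.3 CPM) and 808 in mouse 2 (371 cells, 434.1 CPM). These levels were above those of resting epithelium, at 242.4 and 241.6 CPM. Resting leukocytes stood at 411.8 and 732.9 CPM.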

How the results depend on the processing

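The counts of genes higher in cycling than in resting epithelium and leukocytes stayed within 1.5 times under every alternative, at 38 to 41 and 21 to 35 (29 to 38 and 17 to 26 when 1 of the 8 sums was left out, where a lone sum is assumed to vary like the other classes), and none was lower. For cycling epithelium against cycling leukocytes, where no gene was called, the count of higher genes was 1 without the low-count filter or with a gate of 3 UMIs in both, 2 with the mouse block, 5 with a gate of 2 UMIs in both, and 3 without immunoglobulin- and acinar-rich epithelial cells or with keratin gates; that of lower genes was 1 with only the compared classes or Epcam-free leukocytes (Rpa1) and 2 with Cd79-marked leukocytes (Cdc45 and Rfc2). The median over the module turned to -0.054 with keratin gates and at least 6 UMIs, against -0.065 over all genes. Under that setting Rfc1 turned to -0.41, and to -0.35 for the difference between compartments. Tipin, at 0.07, turned to -0.0881 with Epcam-free, -0.23 with Cd79-marked leukocytes and -0.11 with the 6-UMI keratin gates, and ran from -0.18 to 0.24 with sums left out. For the difference between compartments the higher and lower counts, 0 and 0, became 8 and 1 with DESeq2, 11 and 2 without the filter, 11 and 1 with the mouse block, 3 and 1 without immunoglobulin- and acinar-rich epithelial cells, 6 and 1 with keratin gates, and 3 and 1 with the 6-UMI keratin gates. Between resting classes the higher count, 1, was 2 without the filter, with a strict epithelial gate, with Epcam-free leukocytes or with either keratin setting, 3 without immunoglobulin- and acinar-rich epithelial cells, and 0 to 1 with a sum left out. The lower count, 16, was 7 with only the compared classes, 4 in cells of at least 5000 UMIs, 3 with Cd79-marked leukocytes, and 4 to 14 with a sum left out. The causes were not tested. Leaving immunoglobulin genes out shifted the median of all genes from -0.07 to -0.24 for the epithelial contrast, from 0.05 to -0.22 for the difference between compartments and from -0.21 to 0.04 between resting classes. The mouse block changed calls only as given here and beside the results, and also lost Pole between resting classes. The keratin and 6-UMI gates, the immunoglobulin setting, the left-out sums and the comparison of resting classes were chosen after seeing the data. Fitting only the compared classes cannot be applied to the difference between compartments. Genes under about 20 UMIs per sum, such as Orc1, Gins3 and Cdc45, are limited by depth.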
